A study of Mus musculus with 2 samples.

Results

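The genes Mgat4c, Lingo2, Lrfn5, Lrrc4c, Gap43, Nebl and Tmem132c, 7 of the 32285 genes counted, were followed across the cell classes of the embryonic mouse telencephalon. They were picked on their values in these data, as genes with more transcripts in Sst-positive than in Sst-negative interneuron-like cells of the medial ganglionic eminence (MGE), so that contrast is described here without a test. The question asked of them was in which other cell types they occur. Both libraries came from wild-type (WT) mouse embryos at E14.5, and hold single cells of the dissociated dorsal telencephalon, labelled as brain hemispheres, captured in droplets and sequenced from the 3′ end of their RNA. The labels carry the name EomesDot, which they do not explain, while the study describes C57BL/6J embryos. Library numbering, 2 and 4, follows the labels. There was 1 group only, so no genotypes or treatments were compared, and the comparisons are between cell classes within the libraries. The labels do not say whether the libraries came from separate embryos or pools, so p-values measure only the spread between these libraries.

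Somatostatin (Sst) marks a family of inhibitory neurons that are born in the MGE and migrate into the cortex. While they migrate and send out axons, neurons carry adhesion proteins on their surface that are later used to choose partners and build synapses. Lingo2, Lrfn5 and Lrrc4c encode membrane proteins with leucine-rich repeats (LRR). LRFN5 is a synaptic adhesion protein that binds receptor tyrosine phosphatases in trans, and the protein of Lrrc4c, NGL-1, binds netrin-G1 on axons. LINGO2 is a relative of LINGO1, a co-receptor of the Nogo receptor. Mgat4c belongs by name and sequence to the N-acetylglucosaminyltransferase IV family, whose best known members add a branch to N-glycans of secreted and surface proteins. Gap43 encodes a major protein of the growth cone, and Nebl encodes nebulette, an actin-binding protein of the nebulin family. Tmem132c encodes a transmembrane protein of a family proposed to act in adhesion.

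Replicate 2 held 1712 barcodes with 40267872 unique molecular identifiers (UMIs, tags that each mark 1 captured transcript), and replicate 4 held 2589 barcodes with 49422007 UMIs. After filtering, 1197 and 1956 cells were retained, with medians of 30810 and 22949 UMIs. The libraries shared 3 barcodes, 1 of them among retained cells. Levels are given as CPM, the UMIs of a gene scaled to 1000000 UMIs of the cells summed. In these sums, fewer cells with a transcript and less of it per cell cannot be told apart, so shares of cells are given beside them. Classes were rebuilt by clustering without the members among the genes used, and the suffix "-like" marks a name taken from marker lists. The libraries differed in make-up. Striatal projection neuron-like cells numbered 1 in replicate 2 and 65 in replicate 4, and dividing GABAergic precursors 6 and 41, while hem or choroid plexus-like cells numbered 18 and 9. The reason was not tested. The MGE interneuron-like class held 54 cells in replicate 2 and 81 in replicate 4, and 23 and 26 of them had at least 1 Sst UMI (Sst-positive). In both groups of MGE interneuron-like cells and both libraries, all 10 markers of the GABAergic list were detected. Of the 12 excitatory markers, from 2 to 6 were at 0 in each of these groups, Fezf2 and Bhlhe22 in all 4, while Mef2c (2794 UMIs over all MGE cells), Bcl11b (1200) and Bcl11a (910) were abundant. Summed meningeal markers were at 0 in Sst-positive cells of both libraries (7 of 7 markers). All 587 and 886 excitatory neuron-like cells held 17 and 21 Sst UMIs. Of the 17 in replicate 2, 16 lay in 3 cells of a cluster led by Stmn2 and hemoglobin genes (35 cells, median 3879 UMIs). In replicate 4 the 19 cells of that cluster held 0.

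A feature that did not enter the choice was the length of the gene body, which exceeded 100 kb in 6 of the 7 members and in 2564 of 26296 genes. The RefSeq spans (GRCm38.p6, the build that the submitters name as mm10) were 1313.5 kb for Lrrc4c at chr2:96318169-97631672, 1255.0 kb for Lingo2 at chr4:35696778-36951744, 710.4 kb for Mgat4c at chr10:101681487-102391851, 392.3 kb for Nebl at chr2:17342673-17734949, 335.1 kb for Lrfn5 at chr12:61522851-61857928, 324.0 kb for Tmem132c at chr5:127241826-127565790 and 92.1 kb for Gap43 at chr16:42248552-42340651. The median over all genes was 15.4 kb. Genes over 100 kb took 41.6% of UMIs in Sst-positive cells of replicate 2 and 41.7% in replicate 4, against 40.9% and 44.9% in Sst-negative cells, and the part of gene length in the contrast was not tested.

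Promoter sequences of RefSeq (250 bases before to 50 bases after a transcript start, GRCm38.p6) were found for 6 of the 7 members, which have 13 such windows. Gap43 had no entry. The windows were searched on both strands for TAATTA (core of many homeodomain sites, the protein family of the interneuron factors DLX and LHX6), TATAAA (the TATA box), GGGCGG (GC box) and TGACGTCA (cAMP response element), and capitals mark every match. Both first windows are shown because they are the 2 of 13 that hold TAATTA, and those of Lrfn5 and Tmem132c because, among the named classes, these members were highest in unlike ones, excitatory neuron-like and meningeal-like cells. They lie at chr10:102158608-102158907 (plus strand, the second of 4 listed starts of Mgat4c), chr4:35845155-35845454 (minus strand, Lingo2), chr12:61522917-61523216 (plus strand, Lrfn5) and chr5:127241576-127241875 (plus strand, Tmem132c), and are written 5′ to 3′ on the strand of the gene.
Mgat4c: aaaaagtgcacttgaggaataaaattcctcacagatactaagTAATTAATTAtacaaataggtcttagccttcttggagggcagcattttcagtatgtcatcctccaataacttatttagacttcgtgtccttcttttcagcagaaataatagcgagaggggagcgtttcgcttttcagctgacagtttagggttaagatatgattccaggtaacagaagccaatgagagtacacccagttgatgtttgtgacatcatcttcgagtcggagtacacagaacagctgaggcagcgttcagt
Lingo2: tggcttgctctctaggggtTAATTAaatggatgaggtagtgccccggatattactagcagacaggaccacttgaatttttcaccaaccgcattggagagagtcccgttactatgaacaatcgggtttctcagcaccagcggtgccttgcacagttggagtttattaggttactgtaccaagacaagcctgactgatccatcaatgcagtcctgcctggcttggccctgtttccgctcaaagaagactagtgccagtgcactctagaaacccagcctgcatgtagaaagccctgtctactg
Lrfn5: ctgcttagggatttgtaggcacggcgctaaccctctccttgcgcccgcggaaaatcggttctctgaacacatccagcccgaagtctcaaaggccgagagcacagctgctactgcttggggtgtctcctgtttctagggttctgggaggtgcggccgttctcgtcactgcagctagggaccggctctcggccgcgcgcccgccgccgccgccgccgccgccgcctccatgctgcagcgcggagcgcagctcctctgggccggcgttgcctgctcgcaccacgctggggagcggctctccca
Tmem132c: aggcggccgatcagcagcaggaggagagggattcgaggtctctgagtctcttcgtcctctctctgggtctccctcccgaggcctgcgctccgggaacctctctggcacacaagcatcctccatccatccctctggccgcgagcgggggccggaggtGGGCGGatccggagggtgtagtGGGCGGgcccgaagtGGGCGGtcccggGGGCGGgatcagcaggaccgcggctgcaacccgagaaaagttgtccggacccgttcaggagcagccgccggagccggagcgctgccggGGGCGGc
In the Mgat4c window both matches overlap, starting at positions 43 and 47, and the Lingo2 match starts at position 20. TAATTA occurred in 5.29% of all 32851 windows of the table. The Tmem132c window held 5 GC boxes, a motif found in 35.7% of windows, and the Lrfn5 window held none of the 4 motifs. No window of a member held TGACGTCA, which 1.79% of all windows have. Their base composition ranged widely, from 26.3% GC in the other window of Lingo2 to 72.0% in one of Nebl, around a median of 52.7% over all windows.

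In MGE interneuron-like cells, the LRR genes were seen mostly where Sst was. Lingo2 stood at 525 CPM in Sst-positive cells of replicate 2 (302 UMIs in 23 cells) and at 474 CPM in replicate 4 (212 UMIs in 26 cells). In Sst-negative cells it stood at 16.4 CPM (11 UMIs, 31 cells) and 32.2 CPM (21 UMIs, 55 cells). Both Sst-positive libraries were above both Sst-negative ones, as for every member, since this contrast chose them. Lrfn5 stood at 297 and 463 CPM in Sst-positive and at 25.4 and 44.5 CPM in Sst-negative cells of replicates 2 and 4. Lrrc4c stood at 157 and 208 CPM against 13.4 and 30.7 CPM. Lrfn5 had a UMI in 11 of 23 and 14 of 26 Sst-positive cells, and Lrrc4c in 10 and 9.

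For the glycosyltransferase gene Mgat4c, the levels were 186 and 382 CPM in Sst-positive cells. Sst-negative cells held 0 UMIs in replicate 2, which allows a level of up to 4.47 CPM (3 counts), and 1 UMI in replicate 4. In this contrast, which chose the gene, the difference was at least 41.6-fold in replicate 2 and 249-fold in replicate 4, there over 1 UMI. Without its highest cell, which held 82.2% of the UMIs, the bound in replicate 2 was at least 7.63-fold. In replicate 4, 167 of the 171 UMIs came from 1 cell, and the level without it was 10.0 CPM, so the 249-fold value rests on that cell. The growth cone gene Gap43 stood at 153 and 130 CPM against 20.9 and 18.4 CPM, Nebl at 104 and 141 CPM against 16.4 and 6.13 CPM, and Tmem132c at 110 and 179 CPM against 22.4 and 26.1 CPM. Gap43 was also detected in 32.3% and 16.4% of Sst-negative cells, with at most 3 UMIs per cell, and Tmem132c in 25.8% and 14.5%. In Sst-positive cells the shares were 43.5% and 42.3% for Gap43 and 39.1% and 34.6% for Tmem132c. All 7 members were at least 2-fold higher in both libraries on a scale of CPM + 10, as 1.01% of the 9211 genes with at least 20 UMIs were. This count belongs to the contrast that chose the members. By the lower of both ratios, Mgat4c ranked first, Lingo2 second and Tmem132c 21st among those genes, with a ratio of 3.69 for Tmem132c. Cdh13, which encodes a cadherin, and Npy, a neuropeptide of many Sst-positive interneurons, ranked among the members with lower ratios of 9.02 and 6.98. Reln lay just outside them at 3.67, below Tmem132c. Endothelial-like cells (9 and 18 cells at medians of 16901 and 16685 UMIs) held a UMI of Lingo2 in 0% and 5.56% and of Nebl in 0% and 33.3% of cells.

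**Figure D1:**
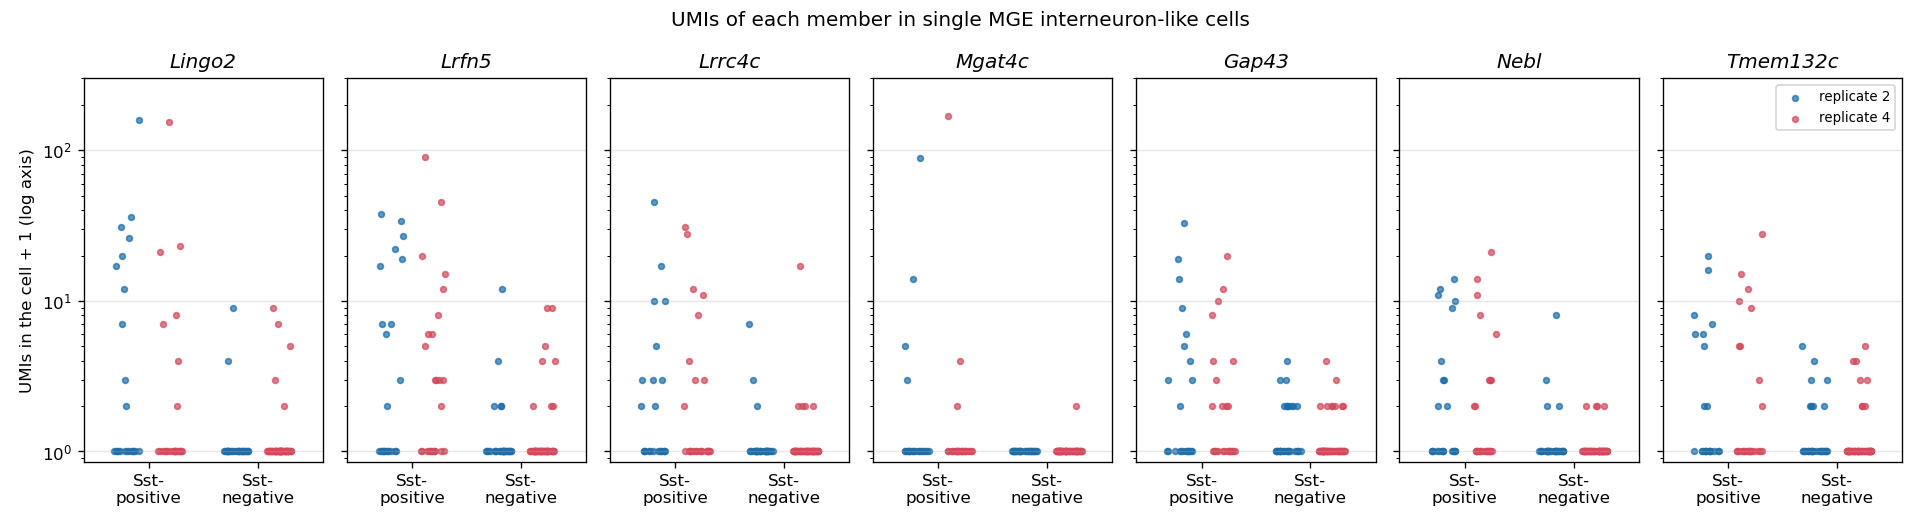
UMIs of each member in every MGE interneuron-like cell (vertical axis, UMIs + 1, logarithmic), with Sst-positive cells on the left and Sst-negative cells on the right of each panel and colour for the library. For Mgat4c, 1 cell per library lies far above the rest, with 88 UMIs in replicate 2 and 167 in replicate 4, whereas Lrfn5 is spread over 25 Sst-positive cells in all.

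These levels rested on few cells. A single cell held 88 of the 107 Mgat4c UMIs of Sst-positive cells in replicate 2 (82.2%) and another 167 of 171 in replicate 4 (97.7%). For Lingo2 the highest cell held 52.0% and 72.2%, and for Lrfn5 21.6% and 43.0%. In replicate 4, 1 cell of 47403 UMIs and 24 Sst UMIs was highest for Lingo2, Mgat4c, Gap43 and Nebl, and a second of 41668 UMIs was highest for Lrfn5, Lrrc4c and Tmem132c. In replicate 2, 4 cells led the members between them. Together these 6 cells held 72.1% of all member UMIs of Sst-positive cells in replicate 2 and 67.9% in replicate 4, with 24.8% and 19.9% of the total UMIs of those cells.

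These 6 cells expressed interneuron genes. Each had Lhx6 (from 4 to 17 UMIs), Npy (from 2 to 99 UMIs) and 12 to 42 UMIs of Gad1 and Gad2. The striatal genes Isl1, Ebf1 and Six3 and the Cajal-Retzius genes Trp73 and Lhx5 had 0 UMIs in all 135 MGE cells, so their absence is not particular to these 6. Other genes of those lists were present in MGE cells and were not counted in the 6 cells, such as Foxp1 of the striatal list with 337 UMIs and Reln of the Cajal-Retzius list, at 878 and 342 CPM in Sst-positive against 158 and 85.9 CPM in Sst-negative cells. The 16 Sst-positive cells with at least 4 members, 8 in each library, had summed excitatory markers of 1779 and 1799 CPM, below the 2003 and 2585 CPM of the other Sst-positive cells and the 8453 and 8541 CPM of excitatory neuron-like cells. Their summed GABAergic markers were lower as well, at 2657 and 2215 CPM against 3798 and 3681 CPM in the other Sst-positive cells, as was Lhx6, at 288 and 200 CPM against 375 and 345 CPM. Their Sst stood at 2759 and 2916 CPM, against 292 and 714 CPM in Sst-positive cells with fewer members. The members were picked for being higher with Sst in this class, so that difference is in part built into the choice. The cells with at least 4 members were also deeper, with medians of 26174.5 and 22879 UMIs against 22124 and 10858.5. The part of depth in these differences was not tested. Of the Sst UMIs of the cells with at least 4 members, 1 cell held 55.8% in replicate 2 and 44.7% in replicate 4, and without it, a setting added after seeing the data, the levels were 1511 and 1957 CPM. Among Sst-negative cells, 0 of 31 and 2 of 55 had at least 4 members.

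Without the highest cell of each gene and library, Lingo2 remained at 270 and 147 CPM, Lrfn5 at 252 and 291 CPM, and Nebl at 88.5 and 107 CPM, all above the Sst-negative cells. Mgat4c came to 34.1 CPM in replicate 2 and 10.0 CPM in replicate 4, where 4 UMIs were left, and 6 of 7 members stayed at least 2-fold higher in both libraries. Leaving out all 6 leading cells left 5, without Mgat4c in replicate 4 (11.2 CPM, ratio 1.83) and Tmem132c in replicate 2 (44.0 CPM, ratio 1.67). Both alternatives were chosen after the single cells had been seen.

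**Figure D2:**
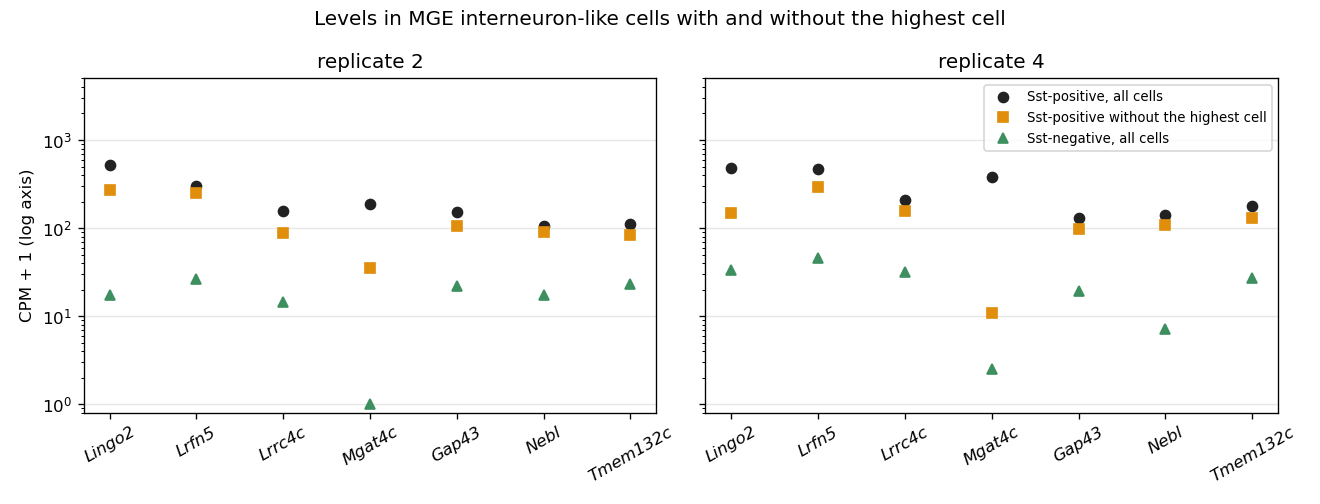
Level of each member (CPM + 1, logarithmic axis) in Sst-positive cells, in the same cells without the one holding the most UMIs of that gene, and in Sst-negative cells, for each library. Mgat4c falls furthest, from 382 to 10.0 CPM in replicate 4, and Lrfn5, Gap43, Nebl and Tmem132c keep most of their level.

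Depth differed between the groups, with a median of 25713 and 15037 UMIs in Sst-positive and 23396 and 9006 in Sst-negative cells. When each cell of at least 5000 UMIs was thinned to 5000, which left out 1 cell of replicate 4 among the Sst-positive and 1 and 6 among the Sst-negative cells, all 7 members stayed at least 2-fold higher with the Sst status of the full counts. With Sst status read from the thinned counts as well, 5 did. Mgat4c then had 36.4 CPM in positive and 46.2 CPM in negative cells of replicate 4, and Lingo2 127 and 80.8 CPM. Within the class, the UMIs of Lingo2 and Nebl lay mostly in one of its 2 sub-clusters, the one led by Sst and Dpp10: Lingo2 stood there at 376 and 373 CPM, against 0 UMIs in 19 cells and 2 UMIs in 48 cells of the other, and Nebl at 85.2 and 105 CPM against 0 and 2 UMIs. The rule used that same set of cells, so this is a description.

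A small set of 26 cells, all from replicate 4 and with Sst, Sgcz, Calb1, Lingo2 and Nr2f2 among its leading genes, raised markers of CGE (caudal ganglionic eminence) interneurons and was left without a sub-class. Its 9 Sst-positive and 17 Sst-negative cells did not show the same split. Lingo2 was high in both, at 992 and 1131 CPM, as was Gap43, at 534 and 398 CPM. Lrrc4c was lower in the Sst-positive cells (192 against 827 CPM), Mgat4c likewise (54.7 against 244 CPM), and Tmem132c had 0 UMIs in the 9 cells, which allows up to 20.5 CPM, and 4 UMIs in the 17. Counted as MGE interneuron-like, as an alternative chosen after seeing the data, it lowered the number of members at least 2-fold higher in both libraries from 7 to 4, while the genes that passed fell from 93 of 9211 to 51 of 9668.

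Outside the MGE class the members parted into different cell types. Values are those of replicates 2 and 4 in that order.

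**Figure D3:**
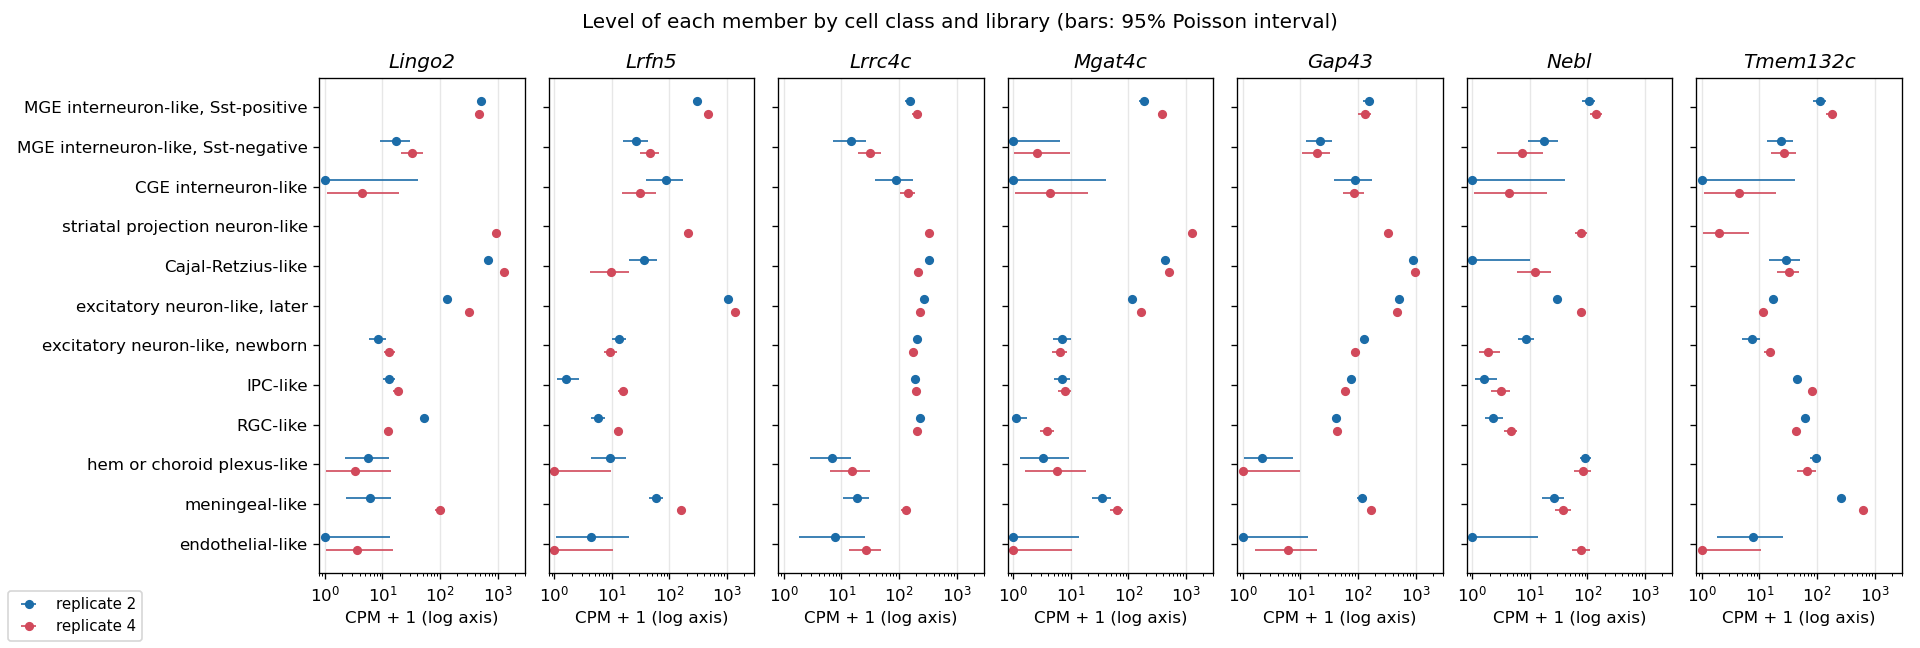
Level of each member (CPM + 1, logarithmic axis) in 12 cell classes, one point per library with its 95% Poisson interval, which covers counting error only; classes with under 3 cells in a library are not drawn. Lrfn5 peaks in later excitatory neuron-like cells (1056 and 1372 CPM), Tmem132c in meningeal-like cells (261 and 639 CPM), and Lrrc4c stays between 157 and 336 CPM in 7 of the classes.

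Lingo2 stood at 675 and 1305 CPM in Cajal-Retzius-like cells, early neurons of the marginal zone that secrete reelin. The striatal projection neuron-like cells of replicate 4 stood at 957 CPM (95% Poisson interval 898 to 1020, 65 cells; replicate 2 held 1 such cell). Then came Sst-positive MGE cells and later excitatory neuron-like cells (134 and 319 CPM). The level of the striatal cells lay between the libraries of the Cajal-Retzius-like cells, so these classes have no order. The RGC-like (radial glia) cells stood at 52.4 and 11.6 CPM and IPC-like (intermediate progenitor) cells held 62 and 108 UMIs in 161 and 247 cells. CGE interneuron-like cells held 0 UMIs in 6 cells and 1 UMI in 27 cells, but this low level depends on the naming, since the Sst-led set of 26 cells, at 1078 CPM, raised 4 CGE markers and was kept out of the CGE class only because Sst led it. In excitatory neuron-like cells the gene was patchy, with a UMI in 24.5% and 23.9% of cells, and it gathered in a cluster led by Tafa1 and Slit3, at 561 and 1122 CPM with a UMI in 81.4% and 73.4% of cells.

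Lrfn5 was foremost a gene of excitatory neurons, which held 96.9% of its UMIs in retained cells. It stood at 851 and 1021 CPM in excitatory neuron-like cells, at 1056 and 1372 CPM in the later ones, and at 2756 and 2940 CPM in a cluster led by Rgs6 and Lrfn5, where 100% of cells of both libraries had a UMI. The Sst-positive MGE cells (297 and 463 CPM) came next, above the striatal cells of replicate 4 (207 CPM) and the meningeal-like cells (57.8 and 155 CPM), whose UMIs lay mostly in 1 cell per library (44 of 46 and 124 of 162). Cajal-Retzius-like (34.9 and 8.50 CPM), newborn excitatory neuron-like (12.3 and 8.39 CPM), RGC-like (4.81 and 11.7 CPM) and IPC-like cells (0.583 and 14.9 CPM) overlapped at the low end.

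Lrrc4c was the broadest. RGC-like cells stood at 234 and 202 CPM, IPC-like cells at 189 and 195 CPM, excitatory neuron-like cells at 258 and 214 CPM, Cajal-Retzius-like cells at 336 and 212 CPM and Sst-positive MGE cells at 157 and 208 CPM, and these classes overlapped with each other but for small gaps. A UMI was found in 72.5% and 76.3% of RGC-like cells. The striatal cells of replicate 4 stood at 332 CPM, and a cluster without a name that was led by Rspo2 and Ttr at 622 and 561 CPM. The low classes were the Sst-negative MGE cells, the dividing GABAergic precursors (29.9 and 26.3 CPM), endothelial-like cells (6.81 and 25.6 CPM) and hem or choroid plexus-like cells (5.83 and 14.2 CPM).

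Mgat4c was highest in striatal projection neuron-like cells. In replicate 4 it stood there at 1257 CPM (1189 to 1329, 65 cells), nearly all of it in a sub-cluster led by Ebf1, Mgat4c, Col25a1 and Isl1, at 2307 CPM with a UMI in 85.7% of 35 cells. The other striatal sub-cluster, led by Slit3 and Rasgef1b with Drd2 and Six3, held 28.3 CPM. The single striatal cell of replicate 2 had 49 UMIs. Cajal-Retzius-like cells followed at 424 and 510 CPM and stood above the Sst-positive MGE cells (186 and 382 CPM), though 1 of the 16 Cajal-Retzius-like cells of replicate 2 held 119 of their 170 UMIs (70.0%). Excitatory neuron-like cells stood at 92.6 and 125 CPM, IPC-like cells at 6.02 and 6.78 CPM and RGC-like cells at 0.130 and 2.87 CPM, where 23 of the 30 UMIs of replicate 4 came from 1 cell. In 27 endothelial-like cells it was at 0 UMIs, which allows 11.1% of cells with a UMI, at medians of 16901 and 16685 UMIs per cell.

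Gap43 was highest in Cajal-Retzius-like cells (892 and 966 CPM, a UMI in 100% and 83.3% of cells). The later excitatory neuron-like cells stood at 505 and 474 CPM and the striatal cells of replicate 4 at 334 CPM. Sst-positive MGE cells (153 and 130 CPM) overlapped with meningeal-like cells (118 and 167 CPM). Newborn excitatory neuron-like cells (129 and 89.0 CPM) lay just below the Sst-positive MGE cells and overlapped with the meningeal-like cells. IPC-like cells (73.6 and 58.8 CPM), RGC-like cells (40.3 and 42.3 CPM) and Sst-negative MGE cells (20.9 and 18.4 CPM) followed in that order without overlap. A cluster of excitatory neuron-like cells led by Stmn2 and hemoglobin genes reached 1242 and 1249 CPM, at a median of only 3782 UMIs per cell.

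Nebl stood at 104 and 141 CPM in Sst-positive MGE cells. With all cells counted, they overlapped neither with hem or choroid plexus-like cells (90.9 and 82.9 CPM, a UMI in 77.8% and 88.9% of cells) nor with later excitatory neuron-like cells (28.8 and 76.5 CPM). These are values that chose the gene, and they rest on few cells. Without its highest cell Nebl stood at 88.5 and 107 CPM in Sst-positive cells, without the 6 leading cells at 60.2 and 83.7 CPM, and in the whole MGE class at 57.0 and 60.9 CPM. One excitatory cluster, that led by Rgs6 and Lrfn5, stood higher, at 132 and 276 CPM. The striatal cells of replicate 4 stood at 76.2 CPM with a UMI in 24.6% of 65 cells, 1 of which held 35 of the 76 UMIs, and their sub-cluster led by Slit3 at 82.7 CPM with a UMI in 40.0% of 30 cells. In the Sst-led set of replicate 4 Nebl was at 41.1 CPM in Sst-positive and 81.4 CPM in Sst-negative cells. Endothelial-like cells had 0 UMIs in replicate 2 and 76.7 CPM in replicate 4, where 18 of the 30 UMIs came from 1 cell. Cajal-Retzius-like (0 UMIs and 11.3 CPM), RGC-like (1.30 and 3.63 CPM) and IPC-like cells (0.583 and 2.10 CPM) were low.

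Tmem132c was the least neuronal. The cluster without a name led by Rspo2 and Ttr had 958 and 968 CPM with a UMI in 93.5% and 95.2% of cells, and the gene was among the 10 genes leading that cluster although it had been left out of the clustering. Meningeal-like cells stood at 261 and 639 CPM, Sst-positive MGE cells at 110 and 179 CPM and hem or choroid plexus-like cells at 94.4 and 66.3 CPM. RGC-like (62.1 and 42.7 CPM) and IPC-like cells (43.3 and 80.9 CPM) overlapped, and one IPC-like cluster led by Neurod1 and Eomes held 140 and 216 CPM. Excitatory neuron-like cells were at 14.4 and 11.3 CPM, and the 65 striatal cells of replicate 4 held 1 UMI. Of 10584 genes compared, an antisense gene, Tmem132cos, had the pattern most like that of Tmem132c (Pearson r = 0.93 over 14 sums of 7 classes). Reads of overlapping genes may be split between them. The cluster led by Rspo2 and Ttr was not among these classes.

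The comparisons of cell classes used sums per class and library and did not include the MGE cells that chose the members. Adjusted p-values are from edgeR's quasi-likelihood test with Benjamini-Hochberg adjustment over all genes tested, and the members are counted beside the share of all 15489 tested genes called in the same direction (15541 for the comparison within excitatory neurons).

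Excitatory neuron-like cells were compared first with the progenitors they arise from. Against RGC-like cells, 5 members were higher: Lrfn5 by a log2 fold change of 7.03 ± 0.96 (SE, n = 2 libraries, adjusted p = 0.000234 in edgeR), Mgat4c by 6.25 ± 0.56 (adjusted p = 1.63e-05), Nebl by 4.21 ± 0.59 (0.000267), Gap43 by 3.52 ± 0.21 (1.87e-06) and Lingo2 by 2.70 ± 0.88 (0.0272). Of all genes, 27.6% were called higher. Tmem132c was lower, by -1.79 ± 0.42 (adjusted p = 0.00532), as 25.4% of genes were, and Lrrc4c did not pass the test (0.35 ± 0.49, adjusted p = 0.579). Against IPC-like cells the same 5 members were higher, with 16.9% of all genes, and Tmem132c was lower by -2.14 ± 0.42 (adjusted p = 0.00407), with 15.6% of all genes. Tmem132c lost this call with cells of at most 5% mitochondrial UMIs (adjusted p = 0.0569) and with UMIs split between clustering and test (adjusted p = 0.0776).

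From RGC-like to IPC-like cells, 2 of 7 members were called. Gap43 was higher in IPC-like cells by 0.78 ± 0.19 (adjusted p = 0.0143) and Mgat4c by 2.04 ± 0.66 (adjusted p = 0.0430), where 15.0% of genes were called higher and 15.8% lower. Mgat4c rested on 73 and 31 UMIs in all, and its sign turned with doublets kept (-0.52) and with split UMIs (-0.73). Gap43 lost its call with cells of at least 500 genes (adjusted p = 0.304) or at most 5% mitochondrial UMIs (adjusted p = 0.103). The other 5 did not pass the test. Among them Tmem132c (0.35) turned negative in 5 of the alternatives that kept both libraries, down to -2.32 with split UMIs, and was called lower in 3 of them, with doublets kept (adjusted p = 0.00744), at Leiden resolution 0.5 (0.0309) and with split UMIs (0.00125).

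Within excitatory neurons, later cells were compared with newborn ones, which still raise markers of intermediate progenitors. Here 5 members were higher in later cells, as 13.4% of all genes were: Lrfn5 by 6.96 ± 0.89 (adjusted p = 0.000362), Mgat4c by 4.68 ± 0.48 (9.41e-05), Lingo2 by 4.56 ± 0.94 (0.00560), Nebl by 3.88 ± 0.75 (0.00390) and Gap43 by 2.24 ± 0.21 (5.37e-05). None was lower, as 9.61% of genes were. Lrrc4c (0.45 ± 0.45) and Tmem132c (0.40 ± 0.52) did not pass the test. At a finer clustering (Leiden resolution 2) Lingo2 (adjusted p = 0.0774) and Gap43 (adjusted p = 0.0517) lost their calls.

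The comparisons with Cajal-Retzius-like and meningeal-like cells were added after the classes had been seen. Cajal-Retzius-like cells were higher than excitatory neuron-like cells in Mgat4c (1.82 ± 0.41, adjusted p = 0.0185) and Gap43 (0.92 ± 0.19, adjusted p = 0.0120) and lower in Lrfn5 (-5.92 ± 1.06, adjusted p = 0.00586), with 6.40% of genes called higher and 7.88% lower. Lingo2 had a log2 fold change of 2.23 ± 0.85 and did not pass (adjusted p = 0.121). Nebl, at -2.80 ± 0.90, missed the threshold (adjusted p = 0.0709) and passed it with the library as a block (adjusted p = 0.00375). Mgat4c lost its call in the DESeq2 test (adjusted p = 0.0549) and with doublets kept (0.0792), and Gap43 lost its own in 3 alternatives (adjusted p from 0.0705 to 0.110). Most Mgat4c UMIs of the Cajal-Retzius-like cells of replicate 2 lay in a single cell, as given above, and the comparison was not run without that cell. Meningeal-like cells were higher than excitatory neuron-like cells in Tmem132c alone among the members (4.87 ± 0.46, adjusted p = 3.34e-05), where 24.9% of genes were called higher. Lrfn5 (-3.39 ± 0.82, adjusted p = 0.00737), Lrrc4c (-1.90 ± 0.56, 0.0181), Gap43 (-1.77 ± 0.20, 9.16e-05) and Mgat4c (-1.43 ± 0.47, 0.0295) were lower, with 24.7% of all genes. The calls of Lrrc4c and Mgat4c were lost with doublets kept (adjusted p = 0.108 and 0.644).

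**Figure D4:**
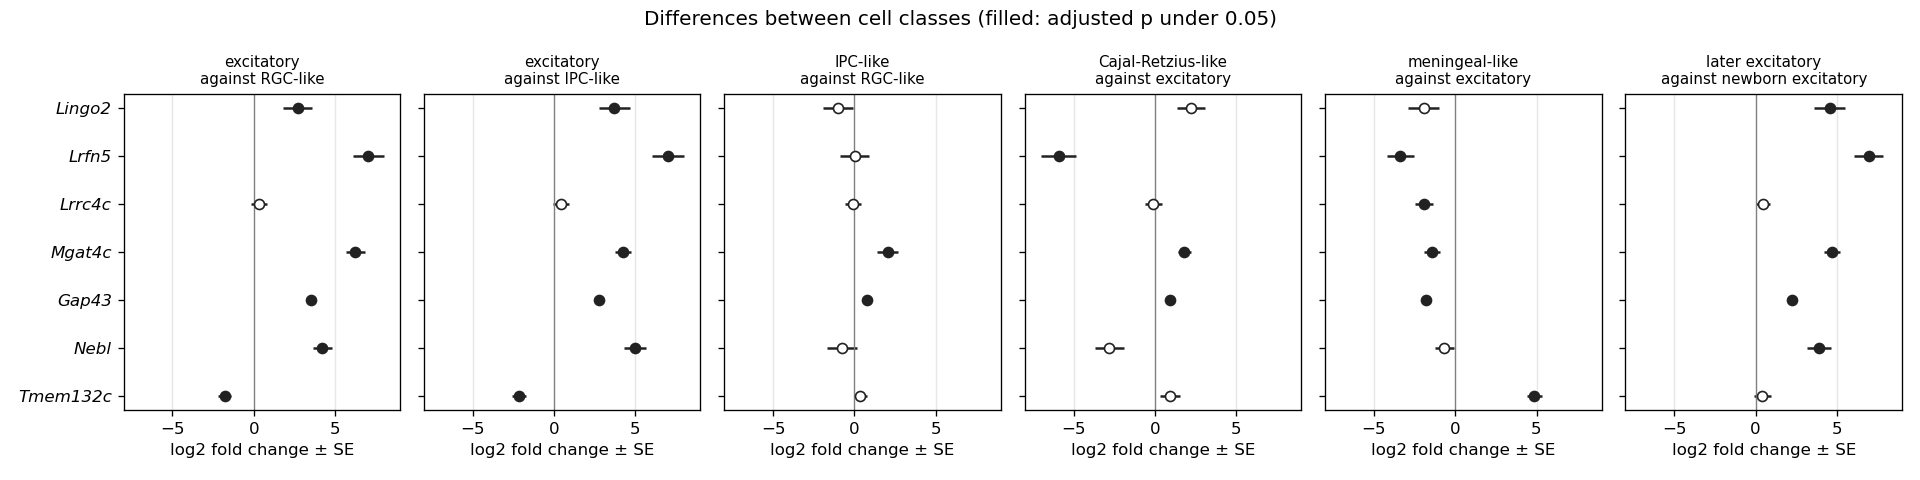
Log2 fold change ± SE of each member (horizontal axis) in the 6 comparisons of cell classes, with filled points for an adjusted p under 0.05. Lingo2, Lrfn5, Mgat4c, Gap43 and Nebl lie to the right in the comparisons of excitatory neuron-like cells with progenitors and of later with newborn cells, Tmem132c has its 1 filled point to the right where meningeal-like cells are compared (4.87), and Lrrc4c stays near 0 except there (-1.90).

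The relatives of the members were then counted, and were taken from fixed lists, without the members themselves. Of 21 tested LRR relatives, 15 were higher and 1 lower in excitatory neuron-like than in RGC-like cells (median log2 fold change 1.29, against 0.04 for all genes), where 27.6% of all genes were called higher and 25.4% lower. Among them were Lingo1 (5.77), Slitrk1 (5.74), Lrrtm4 (5.51) and Lrfn2 (5.34). From newborn to later cells 13 were higher and 1 lower, with 13.4% and 9.61% of all genes (median 1.35 against 0.05), with Lingo1 at 5.72. Their partners gave 7 higher and 1 lower of 10 against RGC-like cells, beside the same 27.6% and 25.4%, with Ngfr at 8.76, Ntng2, a netrin-G, at 5.26 and the receptor phosphatase Ptprd at 3.46. Between Sst-positive and Sst-negative MGE cells, Lrrtm4 was the other LRR relative at least 2-fold higher in both libraries (461 and 881 CPM against 192 and 206 CPM), of 14 with at least 20 UMIs. Of all genes 1.01% passed, and the list counts in this contrast are given as values only. Lingo1 was all but missing there, with 5 UMIs in all MGE cells.

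Of 14 growth cone proteins, 13 were higher and 1 (Marcks, -0.54) lower in excitatory neuron-like than in RGC-like cells (median 2.50, with 27.6% and 25.4% of all genes called), with Stmn2 at 7.05 and Dcx, a microtubule protein of migrating neurons, at 6.33. Between newborn and later cells, where 13.4% of all genes were called higher and 9.61% lower, 3 were higher, Stmn2 (2.90), Stmn4 (2.79) and Dpysl3 (0.61), and Marcks was lower (-0.75). No other growth cone protein was at least 2-fold higher in Sst-positive cells, of 14 with at least 20 UMIs, where 1.01% of all genes passed. Among 10 tested genes of N-glycan branching, 3 were higher and 1 lower against RGC-like cells (27.6% and 25.4% of all genes), with Mgat4a at 1.70 and Mgat4b at 0.94. None of 10 passed 2-fold in Sst-positive cells, where 1.01% of all genes did. Of 8 genes of the nebulin family and actin partners, none was higher against RGC-like cells and 2, Zyx and Tpm4, were lower, where 27.6% of all genes were called higher and 25.4% lower. In meningeal-like against excitatory neuron-like cells, 6 were higher and 1 lower, with 24.9% and 24.7% of all genes (median 2.28 against -0.06). In the TMEM132 family, Tmem132b was also at least 2-fold higher in Sst-positive cells (329 and 197 CPM against 140 and 81.3 CPM). Of the 3 tested relatives, Tmem132d (4.87) and Tmem132a (1.78) were higher and Tmem132b (-4.87) lower in excitatory neuron-like than in RGC-like cells, with 27.6% and 25.4% of all genes, and Tmem132d was also higher in later than in newborn cells (6.32).

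Likeness of pattern was taken over the same 14 sums, which share libraries and depth and of which 4 are the Sst-positive and Sst-negative cells that chose the members. Each gene named is among the 3 with the highest r of 10584 compared. The striatal cells, where Mgat4c was highest, were not among the sums. The genes closest to Gap43 were Tes (r = 0.95), Tbcb (0.94) and Lingo1 (0.93), those closest to Mgat4c were Stk25 (0.95), Ndn (0.94) and Sco2 (0.91), and those closest to Lingo2 were Ccdc39 (0.93), Clvs2 (0.92) and Galnt9 (0.90). Lrfn5 was nearest to Hivep2 (0.89), Fam13a (0.89) and Aig1 (0.89), Lrrc4c to Nme1 (0.92), Mcrs1 (0.89) and March1 (0.87), and Nebl to Gm30382 (0.92), Txndc15 (0.89) and Rapgef4 (0.89). After its antisense gene, Tmem132c was nearest to Mme (0.92) and Ctsl (0.90).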

How the data were processed

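Libraries had been made with the 10x Genomics single cell 3′ v3.1 chemistry, and per the labels the authors ran Cell Ranger 7.0.0 on mm10. They deposited one matrix of UMI counts per library, which had not been normalized. By default this version includes reads from introns. Whether the default was changed is not given in the sources used here.

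Cells needed at least 1000 genes, and no more than 10% of their UMIs could be mitochondrial. Doublets called per library with Scrublet in scanpy 1.11.5 (14 and 15 barcodes) were left out, which left 3153 cells. Clustering used log counts scaled to 10000 UMIs a cell. A set of 2000 variable genes without the members and listed genes, 30 principal components, 20 neighbours (15 for GABAergic cells) and Leiden resolution 1 gave 24 clusters and 8 GABAergic sub-clusters. A name needed at least 3 markers raised by a log2 ratio of 1 (CPM + 10) in 25% of cells. Leading genes of another class barred a name, and Sst among them barred any sub-class but MGE, a rule that was not part of the fixed marker lists. The Sst-led sub-cluster of 26 cells raised 2 MGE markers, too few for that name, and 4 CGE markers, and this rule took the CGE name from it. Rebuilt names may differ from those of the study.

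UMIs were summed per class and library. The classes that had 10 or more cells in both libraries (RGC-like, IPC-like, excitatory neuron-like, Cajal-Retzius-like and meningeal-like) entered edgeR 4.0.16 in R 4.3.3 (TMM, filterByExpr, quasi-likelihood F test), with excitatory cells split for the comparison of later with newborn ones. The SE is the fold change over the square root of F, and calls are those with a Benjamini-Hochberg adjusted p-value under 0.05. DESeq2 1.42.0 served as an alternative. The fits were also run on simulated counts with known changes, and the outcome is not reported here. CGE interneuron-like and striatal cells had 6 and 1 cells in replicate 2, so the 3 planned comparisons with them were not run. Sst-positive and Sst-negative cells were compared as ratios of CPM + 10, with no test. Sums of the same number come from the same library, which pairs them. Over 21 pairs of classes, the correlation of deviations from the class means had a median of 0.160 (0.0498 to 0.437), and the library as a block was an alternative. Intervals and limits of counts of 0 cover counting error only. The named genes were the members, the genes of the fixed lists and the 3 genes most like each member, and other names were chosen after their values were seen. The members and lists were chosen with earlier results of these data known.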

Additional observations from a re-analysis of the deposited data

Results flagged for a closer look

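Barcodes left out for having under 1000 genes (442 in replicate 2 and 423 in replicate 4) still held UMIs of all members. There were 181 UMIs of Gap43, 82 of Lrfn5, 36 of Lrrc4c, 21 of Tmem132c, 10 of Mgat4c and 9 of Lingo2 in them, and 3 of Nebl in those of replicate 4. In replicate 2, Gap43 came to 139 CPM and Lrfn5 to 55.7 CPM of the UMIs of these barcodes.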

How the results depend on the processing

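The alternatives were DESeq2 size factors, the DESeq2 test, all genes with at least 1 UMI, the library as a replicate block, only the classes compared, MGE sums in the fit, cells of at least 500 genes, at most 5% mitochondrial UMIs, doublets kept, Leiden resolutions 0.5 and 2, and UMIs split between clustering and test. Over the members these gave 490 values, of which 431 had the same sign and call as reported, 19 lost a call, 17 gained one and 23 changed sign. Not all of the lost and gained calls are named in the text. The replicate block changed the call of Nebl in Cajal-Retzius-like cells (adjusted p = 0.00375) and of no other member.

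Signs turned mostly between IPC-like and RGC-like cells. Lrfn5 went from 0.02 to -0.054 with DESeq2 size factors, -0.074 in the DESeq2 test, -0.070 with all genes, -0.075 with the replicate block, -0.014 with MGE sums, -0.55 at 500 genes, -0.70 with doublets, -0.045 at resolution 2 and -0.54 with split UMIs. Mgat4c became -0.52 with doublets and -0.73 with split UMIs, and Nebl 0.067 at resolution 0.5. Tmem132c became -1.09 at 5% mitochondrial UMIs, -1.72 with doublets, -1.19 at resolution 0.5, -1.05 at resolution 2 and -2.32 with split UMIs, and was called lower with doublets (adjusted p = 0.00744 in edgeR), at resolution 0.5 (0.0309) and with split UMIs (0.00125). In Cajal-Retzius-like cells Lrrc4c became 0.014 with DESeq2 size factors and 0.028 in the DESeq2 test, and in meningeal-like cells Nebl became 0.14 at 500 genes. Between later and newborn cells Tmem132c became -0.23 at 500 genes, -0.19 at resolution 2 and -0.23 with split UMIs. The genes called there fell from 3579 to 1957 at 500 genes, 2200 at resolution 0.5, 996 at resolution 2 and 2259 with split UMIs. No newborn cells were named at 5% mitochondrial UMIs or with doublets kept, so these gave no value. The cause was not tested. The members at least 2-fold higher in Sst-positive cells numbered 4 with the Sst-led sub-cluster counted as MGE. Leaving out replicate 2 or replicate 4 gives 7 by construction, since the members passed in each library, and raises the genes that pass from 93 to 375 and 258 of 9211.

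With 2 libraries, and with single cells holding most UMIs of Mgat4c and Lingo2, levels in small classes rest on few cells.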

Other observations

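Barcodes called doublets, left out of every class, also held UMIs of all members. Lrfn5 stood at 810 CPM in the 14 of replicate 2 and at 654 CPM in the 15 of replicate 4, Lingo2 at 267 and 104 CPM, and Mgat4c at 268 and 21.2 CPM. Barcodes over 10% mitochondrial UMIs, also left out, held UMIs of every member too. In the 195 of replicate 4, Lingo2 stood at 309 CPM, Lrfn5 at 421 CPM and Lrrc4c at 276 CPM, and in the 59 of replicate 2 at 14.7, 55.8 and 179 CPM, with Tmem132c at 200 CPM there.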
